A study of Rattus norvegicus with 6 samples.

Results

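Aquaporins are membrane channels for water, and the aquaglyceroporins among them also pass glycerol. In the liver, Aqp9 lets glycerol from the blood into hepatocytes, Gk (glycerol kinase) phosphorylates it, and Gpd1 (the cytosolic glycerol 3-phosphate dehydrogenase) converts glycerol 3-phosphate to and from dihydroxyacetone phosphate. From that branch point the carbon can go to glucose or, as glycerol 3-phosphate, to triglyceride. Aqp8 is the water channel of hepatocyte vesicles and the bile canaliculus, where it takes part in bile formation.

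The genes described here are 9 of the 15284 genes with a named probe, 7 aquaporins (Aqp1, Aqp3, Aqp4, Aqp7, Aqp8, Aqp9 and Aqp11) and the enzyme genes Gk and Gpd1. They were chosen by gene symbol, as a family, with differences between the NTA and vehicle arrays in these data already known, so those differences are given as a description and support nothing. Probes were assigned through the RefSeq accession printed for each probe in the scanner files, which gave 17 probes. Of these, 10 were well above background on all 6 arrays and 4 on none. All 9 genes had at least 1 probe past the filter on dim probes (well above background on all 3 arrays of a group), but Aqp3 and Aqp7 passed through the NTA arrays only.

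Livers came from male Sprague-Dawley (Crl:CD(SD)) rats bought at 5 weeks of age, with 1 Agilent one-colour array for each of 6 rats. The NTA group (n = 3) received nitrilotriacetic acid trisodium monohydrate, a metal chelator, at 1000 mg/kg/day, and the vehicle group (n = 3) received the vehicle alone, on the same basal diet with tap water. For the vehicle the labels give both purified water and corn oil, and for the sampling time both 28 days and 9 weeks. The labels speak of separate animals, so the spread between arrays includes that between rats.

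The arrays were alike in depth, with 62.4% to 64.5% of probes well above background and a 75th percentile of processed signal between 464 and 558. Vehicle replicate 3 stood on a slide and a scan day of its own and had a median local background of 40, against 54 to 61 elsewhere. The 3 NTA arrays shared 1 slide with no vehicle array, which means that treatment cannot be told apart from slide. All 10 hepatocyte markers, among them Alb and Ttr, were well above background on all 6 arrays. Values below are log2 of the processed signal relative to the 75th percentile of the same array, and differences are NTA minus vehicle with the standard error (SE) of the limma fit over all features. A level is read only within a probe, because probes differ in brightness for the same amount of RNA.

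None of the 9 genes was called in limma at a Benjamini-Hochberg adjusted p under 0.05, where 0.0297% of the 30353 features tested were called. At an unadjusted p under 0.05, Aqp3 and Aqp7 were higher with NTA and Aqp11 was lower, beside 3.66% of all features higher and 3.91% lower. Groups did not overlap for Aqp7, with NTA above vehicle as for 5.57% of all features, and for Aqp11, with NTA below as for 8.03%. Aqp3 and Aqp7 passed the filter through the NTA arrays only, the group where they read higher. Their p-values and the non-overlap of Aqp7 come after that selection and support nothing. With normexp background correction the differences of Aqp3 and Aqp7 were 0.53 and 0.18. The median of the 9 differences was −0.02, and that of all features −0.03.

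**Figure D1:**
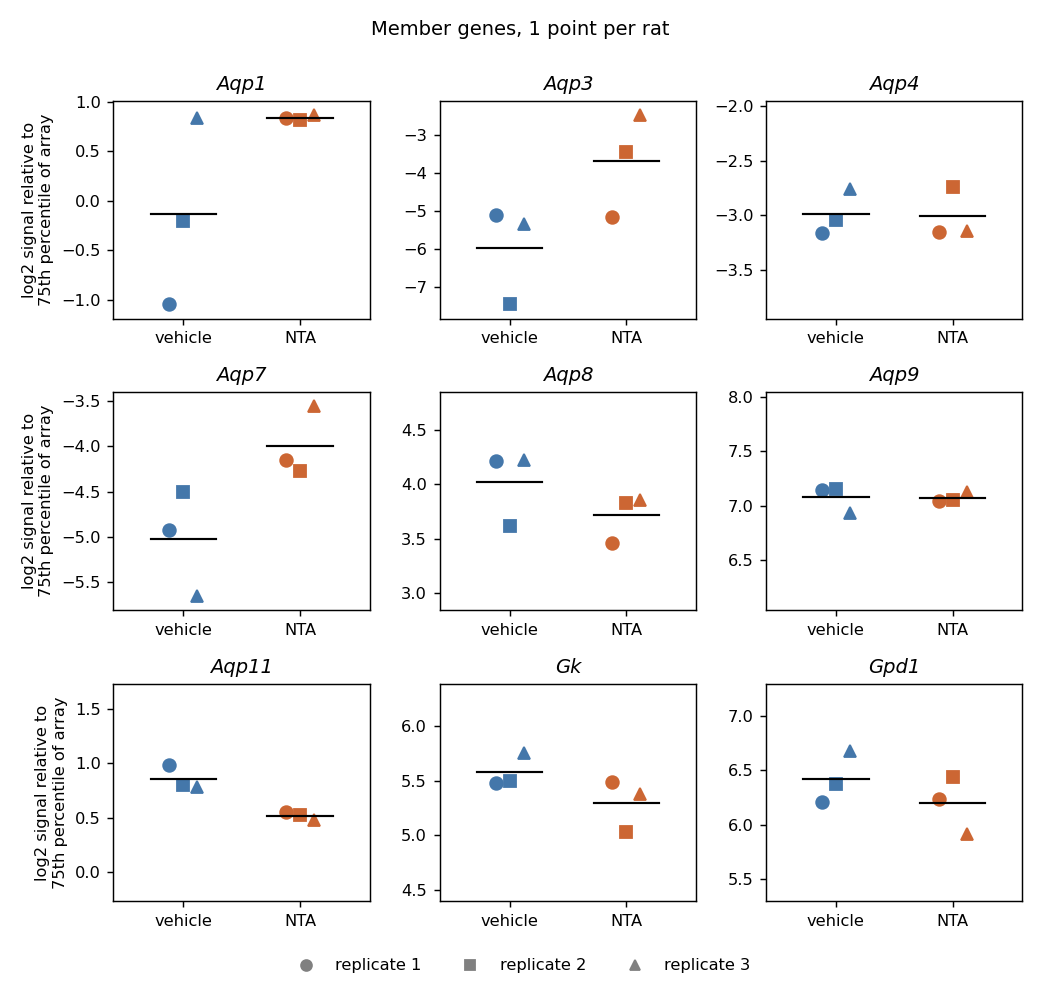
Log2 signal relative to the 75th percentile of the array for the brightest probe of each of the 9 genes, 1 point per rat (circle, square and triangle for replicates 1, 2 and 3; blue vehicle, orange NTA), with a black line at the group mean; each panel has its own axis. Aqp9 sits between 6.94 and 7.15 on all 6 arrays, the 3 NTA points of Aqp11 (0.48 to 0.55) lie under all vehicle points (0.78 to 0.99), and Aqp1 spreads from −1.04 to 0.83 in the vehicle group only.

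The hepatocyte glycerol channel Aqp9 was level across the 6 livers. Its 1 probe read 7.15, 7.15 and 6.94 in vehicle replicates 1, 2 and 3 and 7.05, 7.05 and 7.13 in the NTA replicates. The group means were 7.08 ± 0.12 and 7.07 ± 0.05 (SD, n = 3 each), and the difference was −0.004 (SE 0.11). Vehicle replicate 3 was the lowest array and vehicle replicates 1 and 2 the highest, so the NTA values lay inside the vehicle range. With normexp background correction, an alternative that starts from the median spot signal, the difference was −0.12. No spot of a member gene was flagged as saturated on any array.

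Gk, the kinase that traps glycerol in the cell, read 5.48, 5.498 and 5.75 with vehicle and 5.49, 5.03 and 5.38 with NTA on its brighter probe. The means were 5.58 ± 0.15 and 5.30 ± 0.24, a difference of −0.28 (SE 0.16), and the groups overlapped because NTA replicate 1 exceeded vehicle replicate 1. The second Gk probe read 3.36, 2.92 and 3.21 against 3.11, 2.95 and 3.02, a difference of −0.14. The low NTA replicate 2 carries part of the value: without it the brighter probe gave −0.14, and without NTA replicate 1 it gave −0.37. The probes also ranked the vehicle rats differently, replicate 3 highest on one and replicate 1 on the other.

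Gpd1, next in the path, read 6.21, 6.37 and 6.67 with vehicle and 6.24, 6.44 and 5.91 with NTA. The means were 6.42 ± 0.24 and 6.20 ± 0.26, a difference of −0.22 (SE 0.18). The second Gpd1 probe gave −0.21, from 0.77, 0.74 and 1.38 to 0.97, 0.93 and 0.36. Both probes put vehicle replicate 3 highest and NTA replicate 3 lowest of the 6 rats. The difference was −0.08 without NTA replicate 3, −0.10 without vehicle replicate 3 and −0.09 with normexp on all arrays.

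Aqp3 and Aqp7 are aquaglyceroporins known mainly from other cells, Aqp3 from the basolateral membrane of the kidney collecting duct and from skin, and Aqp7 from adipocytes, where it lets glycerol out. Both gave weak signal in these livers. They lie close together on chromosome 5 of the assembly GRCr8, with 1 other annotated gene between them. The promoter window of Aqp3 is printed as that of the aquaglyceroporin whose difference moved most with the background method. It is the RefSeq sequence from 250 bases before to 50 bases after the annotated start (GRCr8, chr5:61040634-61040933, minus strand), with matches to the searched motifs in capitals. Aqp7 and Gpd1 had no entry in that table.

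Aqp3: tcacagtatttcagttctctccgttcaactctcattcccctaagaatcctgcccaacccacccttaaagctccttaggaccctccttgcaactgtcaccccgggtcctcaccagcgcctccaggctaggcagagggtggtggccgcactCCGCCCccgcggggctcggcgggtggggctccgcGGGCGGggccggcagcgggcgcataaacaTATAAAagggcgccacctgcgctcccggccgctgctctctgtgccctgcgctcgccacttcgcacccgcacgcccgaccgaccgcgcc

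Aqp3 read −5.12, −7.46 and −5.35 with vehicle and −5.16, −3.46 and −2.48 with NTA. NTA replicates 2 and 3 stood above every vehicle rat, while NTA replicate 1 lay at the level of vehicle replicates 1 and 3. The means were −5.98 ± 1.29 and −3.70 ± 1.36, a difference of 2.27 (SE 0.85). The probe was well above background on 3 of 3 NTA arrays but on 1 of 3 vehicle arrays, so the size of the difference is not a measured fold.

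The raw intensities show how dim this spot was. Its median pixel intensity was 51.5, 32 and 53.5 with vehicle, beside local backgrounds of 69, 64 and 45. With NTA it was 49, 84 and 140, beside 63.5, 59 and 66. Only vehicle replicate 3 and NTA replicates 2 and 3 therefore exceeded their own local background, while the scanner flag called vehicle replicate 1, and not vehicle replicate 3, well above background. With normexp the difference was 0.53, and leaving out 1 array moved the main value between 1.53 (without vehicle replicate 2) and 3.01 (without NTA replicate 1).

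Aqp7 read −4.92, −4.50 and −5.65 with vehicle and −4.15, −4.28 and −3.56 with NTA, so every NTA rat lay above every vehicle rat. The means were −5.03 ± 0.58 and −3.99 ± 0.38, a difference of 1.03 (SE 0.33). Its probe was well above background on 3 of 3 NTA arrays but on 2 of 3 vehicle arrays, so this is not a measured fold either. Spot medians of 48.5, 51 and 45 with vehicle and 62, 56 and 83 with NTA stood beside local backgrounds of 67, 60.5 and 35 and of 57, 57 and 64. The spot was thus never more than 1.3 times its local background. With normexp the difference was 0.18. Fat contains much Aqp7, so the adipocyte list was set beside it: 6 of its 10 genes were tested, 3 above and 3 below 0, with a median of −0.07. The defining adipocyte genes Adipoq and Lep had probes, but none past the filter. Of that list Fabp4 was higher, at −4.91, −4.28 and −4.59 with vehicle and −1.64, −2.002 and −2.41 with NTA (difference 2.58, SE 0.24; limma, Benjamini-Hochberg adjusted p = 0.069). With normexp its difference was 1.09. The summed signal of the 6 genes, in multiples of the 75th percentile, was 19.5 to 23.8 with vehicle and 17.1 to 21.2 with NTA. A sum follows its brightest probes, here Cfd (55.1% of it on average) and Cidec (36.1%), and Fabp4 hardly enters it. Which cells the Fabp4 signal came from was not tested. Markers of Kupffer cells and macrophages were all above 0 (13 of 13, beside 43.9% of all features), with a median of 0.35. Their summed signals were 126 to 279 with vehicle and 187 to 369 with NTA, and without vehicle replicate 3 the median difference was 0.07. Their part in the Aqp3 and Aqp7 values was not tested.

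**Figure D2:**
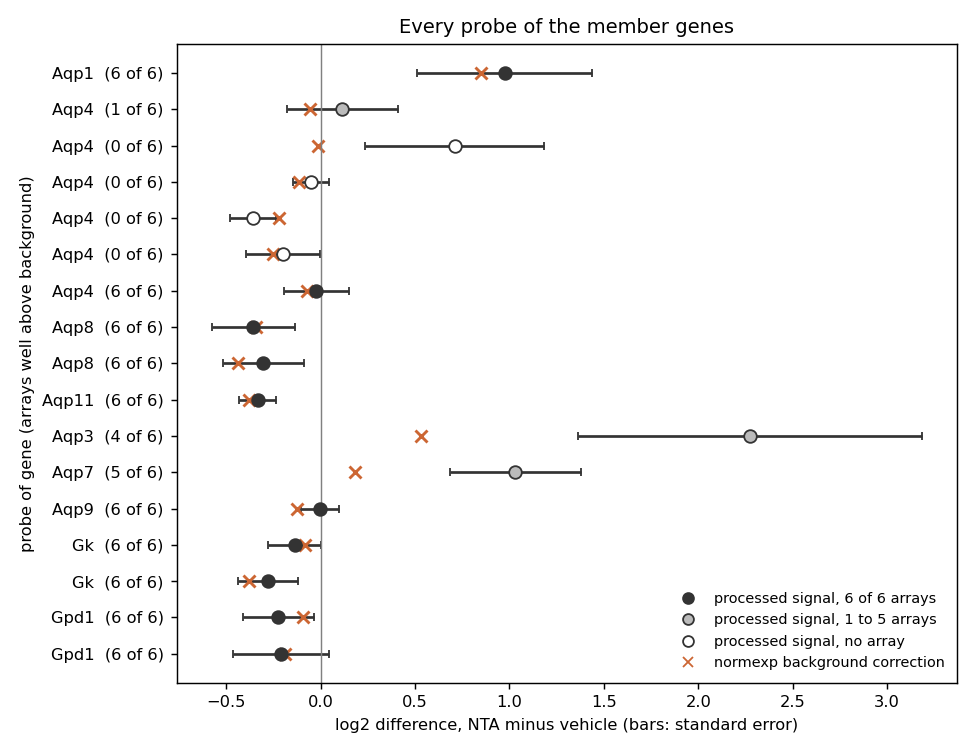
Log2 difference between NTA and vehicle for all 17 probes of the 9 genes: circles with SE bars from the processed signal, filled by how many of 6 arrays were well above background, and orange crosses with normexp background correction. For probes above background on all arrays the methods lie close together (Aqp8, −0.30 against −0.44 on 1 probe, is the widest), while Aqp3 (2.27 against 0.53) and Aqp7 (1.03 against 0.18) shift with the method.

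Aqp11 is an unorthodox aquaporin of intracellular membranes, expressed in hepatocytes and kidney tubules. It was the steadiest difference of the family. The promoter windows of Aqp11 (GRCr8, chr1:161467869-161468168, minus strand) and Aqp8 (GRCr8, chr1:187424193-187424492, plus strand) are printed for the hepatocyte water channels, taken from RefSeq in the same way.

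Aqp11: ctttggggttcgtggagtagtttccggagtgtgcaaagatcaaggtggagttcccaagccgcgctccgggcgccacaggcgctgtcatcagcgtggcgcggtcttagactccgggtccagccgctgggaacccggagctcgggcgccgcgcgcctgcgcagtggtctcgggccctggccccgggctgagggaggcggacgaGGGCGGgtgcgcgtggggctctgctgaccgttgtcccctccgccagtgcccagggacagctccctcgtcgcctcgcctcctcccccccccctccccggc
Aqp8: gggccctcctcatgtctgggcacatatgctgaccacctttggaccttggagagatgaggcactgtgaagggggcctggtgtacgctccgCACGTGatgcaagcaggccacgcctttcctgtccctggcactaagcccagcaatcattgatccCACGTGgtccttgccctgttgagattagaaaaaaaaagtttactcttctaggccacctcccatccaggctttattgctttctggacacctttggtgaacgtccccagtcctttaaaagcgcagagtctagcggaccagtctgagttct

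Aqp11 read 0.99, 0.80 and 0.78 with vehicle and 0.55, 0.53 and 0.48 with NTA. The 3 NTA rats lay within 0.08 of each other and below the lowest vehicle rat. The means were 0.85 ± 0.11 and 0.52 ± 0.04, a difference of −0.33 (SE 0.11), which is 1.26-fold lower with NTA. The spot was 12.6 to 23.7 times its local background. With normexp the difference was −0.38, and leaving out 1 array gave −0.37 to −0.27. Only 1 probe was matched to Aqp11, so no second probe could be compared.

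Aqp8, the canalicular water channel, read 4.21, 3.62 and 4.23 with vehicle and 3.47, 3.83 and 3.86 with NTA. The means were 4.02 ± 0.35 and 3.72 ± 0.22, a difference of −0.30 (SE 0.21). Vehicle replicate 2 sat within the NTA range, and without it the difference was −0.50. Without NTA replicate 1 it was −0.18. The second Aqp8 probe read 4.04, 3.47 and 4.19 against 3.34, 3.59 and 3.71, a difference of −0.36. Both probes put vehicle replicates 1 and 3 above all NTA rats and vehicle replicate 2 among them.

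The lower means of the hepatocyte genes Gk, Gpd1, Aqp8 and Aqp11 stand beside lower hepatocyte markers. Aqp9, also a hepatocyte gene, was level (difference −0.004, SE 0.11). Of the 10 markers 9 were below 0, beside 56.1% of all features, with a median difference of −0.15 (−0.07 with quantile normalization). In limma 0 were called. At an unadjusted p under 0.05 in limma 1 was lower (Ahsg at −0.37, SE 0.15), beside 3.91% of all features. For 3 of the markers all NTA arrays lay below all vehicle arrays, beside 8.03% of all features. The summed signal of the 10 markers was 5294 to 5637 with vehicle and 4644 to 4974 with NTA, without overlap. In whole liver, fewer cells of a type and less RNA per cell cannot be told apart, and the part of the markers in these values was not tested.

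Aqp1 is the water channel of red cells, endothelium and bile duct epithelium. Among members well above background on all arrays it had the widest vehicle spread. Its RefSeq promoter window (GRCr8, chr4:85812534-85812833, plus strand) is printed because Aqp1 had the most uneven values of the probes well above background.

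Aqp1: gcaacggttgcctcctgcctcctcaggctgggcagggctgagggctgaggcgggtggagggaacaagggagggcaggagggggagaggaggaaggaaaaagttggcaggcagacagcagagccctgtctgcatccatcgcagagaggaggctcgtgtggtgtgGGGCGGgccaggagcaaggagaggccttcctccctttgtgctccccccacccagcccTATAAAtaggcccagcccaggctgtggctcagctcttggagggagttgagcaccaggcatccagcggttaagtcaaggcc

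Aqp1 read −1.04, −0.20 and 0.83 with vehicle and 0.83, 0.81 and 0.86 with NTA. Vehicle replicates 1 and 2 lay below all NTA rats and vehicle replicate 3 lay level with them. The means were −0.14 ± 0.94 and 0.84 ± 0.03, a difference of 0.97 (SE 0.43). The vehicle SD of 0.94 was higher than that of 98.8% of the 28724 features whose probe was above background on all arrays (median 0.175), and the NTA SD of 0.03 was higher than that of 2.51% (median 0.153). The spot was 5.27 to 25.3 times its local background. The difference was 0.52 without vehicle replicate 1 and 1.46 without vehicle replicate 3. With normexp it was 0.85.

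Markers of cells that carry Aqp1 were set beside it as the median deviation of a list's genes from their own mean over the 6 arrays. For sinusoidal endothelium (12 of 16 genes tested) this was −0.32, −0.22 and −0.07 in vehicle replicates 1, 2 and 3 and 0.10, 0.27 and 0.27 with NTA. All 12 genes were above 0 between the groups, beside 43.9% of all features, with a median difference of 0.37. In limma 8 of them were higher at an unadjusted p under 0.05, beside 3.66% of all features, and 0 were called. The summed signals were 78 to 94.8 with vehicle and 104 to 116 with NTA. For erythroid genes (11 of 14 tested, 9 above 0, median difference 0.53) the deviations were −0.25, −0.32 and −0.16 and then 0.17, 0.40 and 0.09. Of these genes 5 were higher at an unadjusted p under 0.05 in limma and 0 were called. Their summed signals were 591 to 654 and 724 to 1132, mostly the globins Hba-a1 (60.6%) and Hbb (37.1%). For bile duct epithelium (8 of 12 tested) the median difference was −0.01, with 4 genes above and 4 below 0. The summed signals were 166 to 275 and 206 to 214. Of these the brightest probe of Krt18, a keratin that hepatocytes also make, gave 96.4% on average. In the vehicle group the endothelial deviations rank the rats as Aqp1 does, over a narrower range. With NTA they do not: Aqp1 read 0.83, 0.81 and 0.86, beside endothelial deviations of 0.10, 0.27 and 0.27. Vehicle replicate 3 had NTA-like Aqp1, while its endothelial and erythroid deviations were below those of every NTA rat. The part of these cells in the Aqp1 values was not tested.

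**Figure D3:**
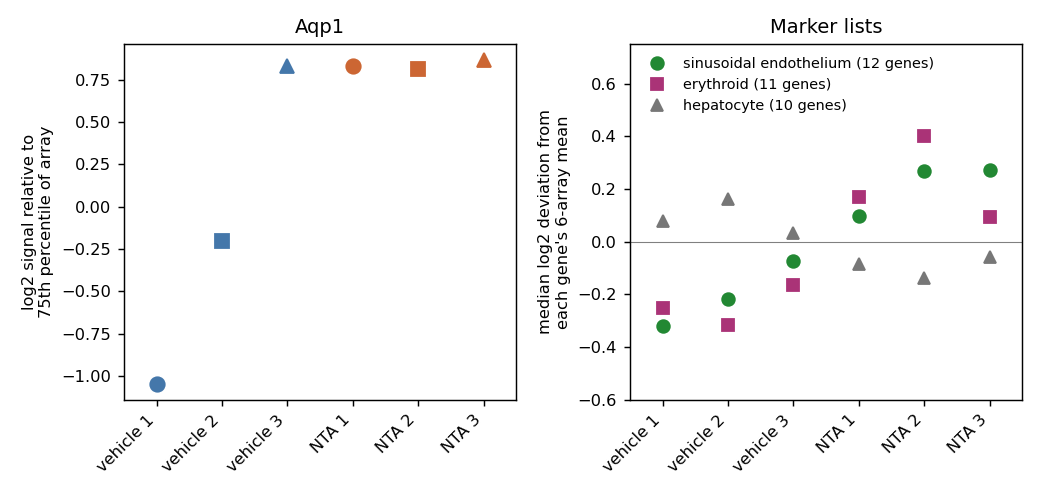
Left, log2 signal of Aqp1 relative to the 75th percentile of each of the 6 arrays; right, median log2 deviation of 3 marker lists from each gene's mean over the arrays (12 endothelial, 11 erythroid and 10 hepatocyte genes). Aqp1 climbs from −1.04 in vehicle replicate 1 to 0.83 in vehicle replicate 3, at the level of the NTA arrays (0.81 to 0.86), whereas the endothelial and erythroid lists are below 0 on all vehicle arrays and above 0 on all NTA arrays.

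Aqp4, the main water channel of brain astrocytes, had 6 probes that disagreed in detection. Only 1 was well above background on all arrays, at −3.16, −3.04 and −2.75 with vehicle and −3.15, −2.74 and −3.14 with NTA, a difference of −0.02 (SE 0.17). Another was above background on 1 array, NTA replicate 3, and the other 4 on none. The differences of these 5 ran between −0.36 and 0.71 and carry no direction, because they rest on undetected spots. The accession of the bright probe is shared by 4 of the 5 others, so the 1 detected probe stands against 4 undetected ones of the same transcript record.

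The 4 promoter windows were searched on both strands for the TATA box (TATAAA), the CCAAT box (CCAAT), the GC box (GGGCGG), the nuclear receptor half-site (AGGTCA), a forkhead motif (GTAAACA), the TRE (TGANTCA), the CRE (TGACGTCA) and the E-box (CACGTG). Aqp1 and Aqp3 each held a TATA box, starting at −30 and −38 from the annotated start, as did 14.2% of all 33469 promoters of that length. GC boxes were found in Aqp1 (1), Aqp3 (2) and Aqp11 (1), beside 33.1% of all promoters with at least 1. Aqp8 held 2 E-boxes, starting at −161 and −98, beside 6.42% of all promoters with at least 1. The GC content was 72.3% for Aqp11, 67.3% for Aqp3, 64% for Aqp1 and 53.7% for Aqp8, against a median of 51.7%. No matches overlapped in these windows. A match of letters is not evidence of a site in use.

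Other genes of water and glycerol handling were taken from 6 lists, with 62 of 70 genes tested. In limma 0 of them were called over all features at an adjusted p under 0.05, and 2 had an unadjusted p under 0.05, beside 7.57% of all features. Where groups of a listed gene did not overlap, the shares of all features were 5.57% with NTA above and 8.03% with NTA below. Of the other aquaporins, 4 of 5 were tested, 1 above and 3 below 0, with a median of −0.04 (−0.16 without vehicle replicate 1). Aqp2, the vasopressin-regulated channel of the kidney, was well above background on every array at 3.60 ± 0.25 with vehicle and 3.47 ± 0.07 with NTA (difference −0.12, SE 0.15), and its second probe gave 0.06. Whether this signal came from Aqp2 RNA was not tested. Aqp12a, known from the pancreas, had a difference of −0.08 (SE 0.12).

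The list of glycerol 3-phosphate and glycerolipid synthesis had 18 of 20 genes tested, 9 above and 9 below 0, with a median of 0.02. Agpat4, an acyltransferase that makes phosphatidic acid, read 0.51, 0.72 and 0.74 with vehicle and 0.88, 0.95 and 1.01 with NTA, without overlap (difference 0.29, SE 0.11; 0.07 with normexp). Gpat2, a mitochondrial glycerol 3-phosphate acyltransferase, was at 0.48 (SE 0.22; 0.23 with normexp), and its second probe gave 0.71. Dgat2, which completes triglyceride and was named after its values were seen, had 3 probes at −0.34, −0.53 and −0.35, and its groups overlapped.

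Among the genes of glycerol release, 12 of 16 were tested, 7 above and 5 below 0, with a median of 0.02. Plin2, the coat protein of hepatocyte lipid droplets, read 6.83, 6.70 and 6.87 with vehicle and 6.47, 6.63 and 6.50 with NTA, all lower (difference −0.27, SE 0.11; −0.39 with normexp). Lpl, lipoprotein lipase, was at 0.30 (SE 0.23). In the list for the use of glycerol in glucose synthesis, 11 of 12 genes were tested, 5 above and 6 below 0, with a median of −0.002 (−0.21 without vehicle replicate 1). Fbp1, the fructose bisphosphatase that follows the entry of glycerol carbon, was at 9.37 ± 0.08 with vehicle and 9.12 ± 0.09 with NTA, without overlap (difference −0.25, SE 0.11), and its second probe gave −0.30. With normexp the first probe gave −0.08. Irs1, an insulin receptor substrate, was at −0.25 (SE 0.17).

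The 9 canalicular partners of Aqp8 had 3 genes above and 6 below 0 and a median of −0.15. Without NTA replicate 2 this median was 0.06. The phospholipid flippase Atp8b1 was at −0.33 (SE 0.14, −0.27 with normexp) with all NTA rats lower. The drug exporter Abcb1a was at 0.29 (SE 0.14, 0.13 with normexp) with all NTA rats higher. Abcb1a was dim, with means of −3.80 with vehicle and −3.51 with NTA. The 8 regulators of aquaporin genes had 6 above and 2 below 0 and a median of 0.04. Foxa1, a forkhead factor of the liver, was at 0.31 (SE 0.14), with its other probe at 0.17, and Hnf4a, a master regulator of hepatocytes, at −0.20 (SE 0.14), with its other probes at −0.34 and −0.32.

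**Figure D4:**
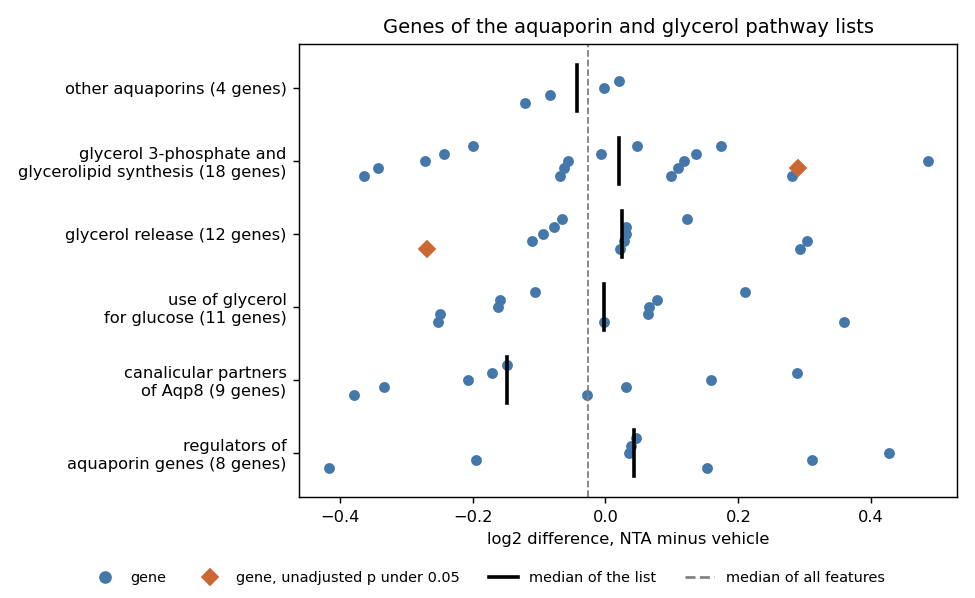
Log2 difference between NTA and vehicle for the genes of 6 pathway lists (1 point per gene, with orange diamonds at an unadjusted p under 0.05), the median of each list (black bar) and that of all 30353 features (dashed line at −0.03). Agpat4 (0.29) and Plin2 (−0.27) are the 2 diamonds, and the medians of the lists run from −0.15 to 0.04.

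Genes with the profile most like a member were sought for Aqp11 and Aqp1, the members above background on all arrays with the smallest p. Likeness was the root mean square difference over the 6 arrays after each gene's own mean was subtracted. Among 9168 genes the nearest to Aqp11 were Icam4 (0.03), Hoxa7 (0.05) and Pym1 (0.05), on the log2 scale. These genes were well above background on every array but dim. Icam4 lay between −4.32 and −3.82, Hoxa7 between −4.12 and −3.54 and Pym1 between −3.30 and −2.75. Among 1713 genes with enough range the nearest to Aqp1 were Ggt1 (0.16), Olr35 (0.23) and Nr1i3 (0.31). Ggt1, the gamma-glutamyltransferase, read −4.79, −3.74 and −2.97 with vehicle and −2.98, −3.04 and −3.21 with NTA. It was picked for this profile, so the likeness is a description.

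The first scan day held both groups and all arrays except vehicle replicate 3, so a value within it is the value without that rat, and scan day, slide and rat cannot be told apart for it. On that day the differences were 1.46 for Aqp1, 2.59 for Aqp3, 0.09 for Aqp4, 0.72 for Aqp7, −0.20 for Aqp8, −0.07 for Aqp9, −0.37 for Aqp11, −0.19 for Gk and −0.10 for Gpd1. The direction was that of all arrays for each gene except Aqp4.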

How the data were processed

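Total liver RNA was labelled with Cy3 and hybridised to Agilent one-colour arrays. The submitters' processing notes name Agilent Feature Extraction 10.7, and the file headers 10.7.1.1. The deposited scanner files hold, for each spot, a linear background-subtracted intensity (the processed signal) beside median spot and background intensities and flags. The authors' deposited series table is a linear ratio of processed signal to the array's 75th percentile, which 100.0% of its probes matched within 0.0001 plus 0.2%; it served as an alternative.

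Spots flagged as non-uniform were set to missing. Values were log2 of processed signal minus log2 of the array's 75th percentile over 61657 non-control probes. A probe was kept when well above background on all 3 arrays of a group, and the brightest kept probe stood for a gene. Accessions were matched to the RefSeq table of GRCr8, giving 27460 probes a symbol; 34197 stayed unnamed. The 30353 features were fitted in limma 3.58.1 (R 4.3.3; lmFit, eBayes, two-sided, Benjamini-Hochberg); the fit was tested on simulated data. Replicate numbers were not used to pair the rats in the main fit. The scanner files used here hold no mean spot intensity, so normexp (offset 50) used the median. Exact permutation of 3 against 3 cannot go below p = 0.1 and was not used.

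The members and lists were chosen with earlier results of these data known. Genes were named by rule: the 9 members and, from each list, up to 4 called genes, or the 2 of smallest p where none was called. The 10 marker lists served as values beside the members. Those not used above had medians of −0.11 (stellate cells and fibroblasts, 11 genes), 0.15 (pancreatic acinar, 4), −0.12 (skeletal muscle, 5) and 0.40 (B and T cells, 4).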

Additional observations from a re-analysis of the deposited data

How the results depend on the processing

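None of the 9 genes was called in limma under any of the 17 alternatives (the scan day block and leaving out vehicle replicate 3 being the same fit; 7 of them tested where probes had to be above background on all 6 arrays), and between 0 and 4 had an unadjusted p under 0.05, beside 6.07% to 10.8% of all features. None of the tested genes of the 6 pathway lists was called either, with 1 to 7 of them at an unadjusted p under 0.05. Normexp moved Aqp3 to 0.53, Aqp7 to 0.18, Aqp9 to −0.12 and Gpd1 to −0.09. The 9 calls over all features became 0 with the labels' replicate number as a block (limma; 2321 at an unadjusted p under 0.05), and 1 (without NTA replicate 2) to 8 (without vehicle replicate 2) when 1 array was left out; without NTA replicate 1 there were 4. The same-numbered arrays' deviations from their group means correlated across features at r = 0.174, −0.006 and −0.075. Arrays of different numbers gave −0.154 to 0.149. Deviations within groups of 3 cannot decide on pairing, and the main fit did not pair the arrays by number. With 1 array of each group per number, that block cannot move a member's difference, whatever the data. In that fit 0 members were called. Slide as a random block, quantile normalization, array medians and the deposited table kept the direction of all 9 genes except Aqp9, whose difference is near 0. The deposited table holds the same ratio as the main values, so its agreement was fixed up to rounding. A random slide term cannot take out a slide effect here, because no slide held both groups. Leaving out 1 array ran from 0.52 to 1.46 for Aqp1, 1.53 to 3.01 for Aqp3, −0.16 to 0.09 for Aqp4, 0.72 to 1.29 for Aqp7, −0.50 to −0.18 for Aqp8, −0.07 to 0.03 for Aqp9, −0.37 to −0.27 for Aqp11, −0.37 to −0.14 for Gk and −0.34 to −0.08 for Gpd1. Signal over background limits Aqp3, Aqp7 and 5 of the 6 Aqp4 probes, and the number of arrays limits all values.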
